A study of Mus musculus with 14 samples.

Results

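The 40 genes described here encode muscarinic acetylcholine receptors, enzymes that make or break down acetylcholine, G protein alpha subunits, and the machinery that makes, senses and removes cyclic AMP (cAMP). They were taken by gene symbol: 5 receptors (Chrm1 to Chrm5), 3 acetylcholine enzymes, 11 G alpha subunits, 5 adenylyl cyclases, 6 subunits of protein kinase A (PKA), 6 phosphodiesterases, the exchange factor Rapgef3 and 3 kinase anchors. All 40 were listed in each of the 12 RNA libraries, among 23599 gene symbols for compound OB and its controls (the OB set) and 54540 for compound PD and its controls (the PD set). The RNA came from BFU-E (cells named for the erythroid bursts that they form in culture, early committed precursors of red blood cells) of C57BL/6 mouse fetal liver, grown in StemSpan SFEM II medium, in a study of how these cells renew themselves. In the OB set, 3 libraries were from cells given compound OB at 100 µM and 3 from cells given the solvent DMSO. In the PD set, 3 libraries were from cells given compound PD at 3 nM and 3 from a separate group of DMSO cells. The age of the embryos, the length of culture and the identity of the compounds were not given in the sources used here, and the series' 2 chromatin samples, CREB and input, are not analysed here. Whether replicates came from separate cultures is not stated, so p-values measure the spread between these libraries, which may be technical.

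Muscarinic receptors are G protein-coupled receptors for acetylcholine. Chrm2 and Chrm4 couple to the Gi class, which lowers adenylyl cyclase activity, whereas Chrm1, Chrm3 and Chrm5 couple to the Gq class, which activates phospholipase C. Gs, encoded by Gnas, raises cyclase activity. The cAMP that cyclases make releases the catalytic subunits of PKA from its regulatory subunits, and free PKA phosphorylates the transcription factor CREB. Phosphodiesterases break cAMP down, anchors of the Akap family hold PKA at particular places in the cell, and Rapgef3 (EPAC1) is a cAMP-activated exchange factor that acts without PKA.

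Levels are given in FPKM (fragments scaled for the length of a gene and the size of its library), as the authors deposited them. A gene is called expressed here when its mean over the 3 DMSO libraries of a set was at least 1 FPKM. All 10 erythroid progenitor markers, Kit, Gata1 and Klf1 among them, passed this level in all 4 groups, and their summed level was 1522 to 1556 FPKM in OB cells against 1485 to 1612 FPKM in their DMSO cells, and 1397 to 1478 FPKM in PD cells against 1503 to 1865 FPKM in theirs. The 6 hepatocyte markers summed to at most 5.84 FPKM in any of the 12 libraries, and 1 of them, Ttr, was at 0 in all. Trf alone of the 6 averaged at least 1 FPKM in a group, and only in the PD set. It measured 5.78, 5.53 and 1.82 FPKM in PD cells and 1.75, 2.86 and 3.29 FPKM in DMSO cells, most of the sum in each. Granulocyte and megakaryocyte markers were present as well, most of all in the PD set. At least 1 FPKM was reached by 8 of 9 granulocyte and 7 of 7 megakaryocyte markers in both OB-set groups, and by all of them in both PD-set groups. The 9 granulocyte markers summed to 29070, 30100 and 36520 FPKM in PD replicates 1, 2 and 3, against 11360, 17170 and 16320 FPKM in DMSO. S100a8 and S100a9 made up most of each of these sums. All PD values lay above all DMSO values for these, Elane, Prtn3, Camp and Ngp, whereas the groups overlapped for Mpo, Ctsg and Ltf. Mpo measured 932.52, 462.97 and 421.61 FPKM in PD cells and 428.14, 555.85 and 560.35 FPKM in DMSO cells. The 7 megakaryocyte markers summed to 7508, 4221 and 4694 FPKM in PD cells and 4551, 2333 and 2303 FPKM in DMSO cells, and the 7 mast cell and basophil markers to 3337, 1575 and 1598 FPKM against 1950, 897.2 and 949.7 FPKM. Both sums overlapped through DMSO replicate 1. Cma1, Cpa3, Mcpt4 and Tpsb2 made up most of the mast cell and basophil sums, and each overlapped between the groups. Mcpt8 measured 5.42, 17.67 and 14.97 FPKM in PD cells and 2.63, 27.96 and 31.05 FPKM in DMSO cells. Fcer1a was at most 0.12 FPKM in PD cells and 2.54 FPKM in DMSO cells. All PD values lay above all DMSO values for Ms4a2 alone. Replicate 1 of the OB set stood apart in both arms: the granulocyte sum was 482.6, 163.7 and 179.2 FPKM in OB replicates 1 to 3 and 577.5, 145.5 and 143.8 FPKM in DMSO, and the megakaryocyte sum was 966.7, 576.5 and 617.0 FPKM against 1356, 476.6 and 559.4 FPKM. In these bulk libraries fewer cells of a type and less RNA per cell cannot be told apart. The depth of each library is unknown, as no counts come with the FPKM. Between 9933 and 10177 genes reached 1 FPKM in a library of the OB set, and between 11436 and 12038 in one of the PD set.

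Of the 40 genes, 27 were expressed in the DMSO cells of the OB set and 31 in those of the PD set, and 26 were expressed in both. These 26 were Ache, 10 G alpha genes (all but Gnai1), Adcy6, Adcy7, Adcy9, the 5 PKA subunits other than Prkar1b, Pde3b, Pde4a, Pde4d, Pde7a and the 3 anchors. Gnai1, Adcy3, Pde4b, Pde8a and Rapgef3 were expressed in the PD set only, and Chrm4 in the OB set only. Single libraries decided 3 of these calls. Without DMSO replicate 1, 25 were expressed in the OB set, as Chrm4 then averaged 0.95 FPKM and Gnaq 0.905 FPKM. Without DMSO replicate 3, 30 were expressed in the PD set, as Adcy3 averaged 0.92 FPKM. The 8 below 1 FPKM in both were Chrm1, Chrm2, Chrm3, Chrm5, Bche, Chat, Adcy4 and Prkar1b. Ranked by their mean over the DMSO libraries, the 5 most abundant members came in the same order in both sets: Gnas, Prkar2b, Gnai2, Prkar1a and Gnai3. In DMSO cells Gnas averaged 346.0 ± 123.0 FPKM in the OB set and 439.1 ± 27.74 FPKM in the other (SD, n = 3 each), above 97.6% and 98.3% of the genes that reached 1 FPKM in each. Prkar2b averaged 145.2 ± 14.92 and 178.8 ± 38.46 FPKM in the same groups, and Gnai2 averaged 94.23 ± 40.56 and 175.9 ± 16.06 FPKM. Single libraries did not all keep this order. Gnai2 and Prkar1a, at 91.49 ± 15.35 FPKM in the OB set, overlapped there. In DMSO replicates 2 and 3 of that set, Prkar1a and Gnai3 both lay above Gnai2. Gnai2 in turn lay above Prkar2b in DMSO replicates 2 and 3 of the PD set. The 2 sets use different gene annotations, so levels set side by side across them were not tested.

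**Figure D1:**
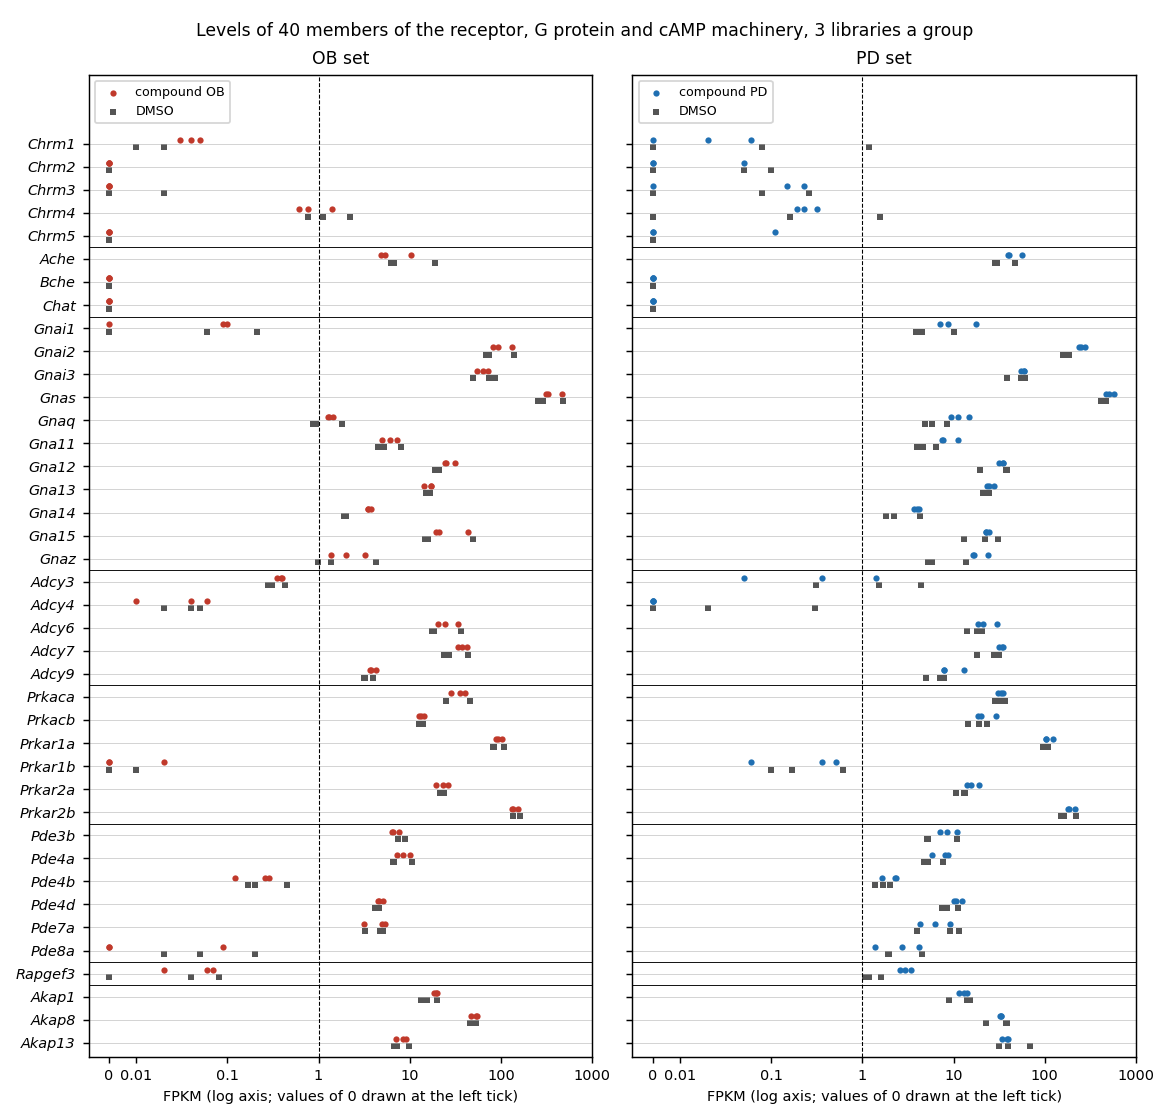
FPKM of each of the 40 genes (rows, by role) in each library on a log axis, compound OB (left panel) and compound PD (right panel) as circles above the DMSO libraries as squares, with 0 drawn at the left tick and the dashed line at 1 FPKM. Receptors other than Chrm4 lie at or near 0, apart from Chrm1 at 1.18 FPKM in DMSO replicate 3 of the PD set. By mean DMSO level, Gnas, Prkar2b, Gnai2, Prkar1a and Gnai3 lead in both sets.

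CREB, the transcription factor at the end of this pathway, binds a short palindrome, the cAMP response element TGACGTCA, and also its shorter core TGACG, which reads CGTCA on the other strand. The 250 bases before the annotated start were searched on both strands for these letters in the 34 members whose promoter is in the RefSeq table (build GRCm38.p6), which are all but Chrm1, Gnai2, Gnaz, Adcy6, Pde3b and Pde7a. The palindrome was found in 1 of the 34, Prkar1a (2.94%, against 1.77% of 27025 genes with a window). The core, counted also where it lies inside the palindrome, was found in 12 of the 34 (35.3%, against 19.8% of all genes): Adcy7, Adcy9, Chat, Gnas, Pde4a, Pde4b, Pde8a, Prkaca, Prkacb, Prkar1a, Prkar1b and Rapgef3. A gene with several annotated starts has several windows, and members had more of them (60 windows for 34 genes, against 32851 for 27025). Per window the shares were closer, 26.7% of member windows against 17.8% of all for the core and 1.67% against 1.55% for the palindrome. The windows of Chrm4 and Gna14 held neither. A match describes letters only and is not a site of binding. The stretches below show, in capitals, the palindrome of Prkar1a and the core matches of the most abundant G alpha gene, of the main catalytic subunit of PKA and of the exchange factor. Other core matches in Prkar1a windows are not printed.
Prkar1a, chr11:109650889-109650918, plus strand: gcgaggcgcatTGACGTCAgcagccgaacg
Gnas, chr2:174327700-174327726, plus strand: agaggttggggCGTCAtcaggctggtt
Gnas, chr2:174329779-174329805, plus strand: gtgtgaggggtCGTCAccaccgcgggg
Prkaca, chr8:83972847-83972873, plus strand: tctgcaactcgCGTCActcatccagga
Prkaca, chr8:83972961-83972977, plus strand: ggctgcgggggCGTCAc
Rapgef3, chr15:97767842-97767868, minus strand: cttgaacccacTGACGtagtctcgggt
The palindrome of Prkar1a begins 49 bases before an annotated start, and the core in the Rapgef3 window begins 191 bases before one. The Prkar1a, Gnas and Rapgef3 stretches lie inside the outer coordinates of their genes, before internal annotated starts.

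Of the receptors, Chrm4 alone reached the expressed level, only in the OB set and only with DMSO replicate 1 included: without it the DMSO mean was 0.95 FPKM, and no receptor was expressed. Chrm4 (chr2:91922189-91929835) is the Gi-coupled M4 receptor. It measured 1.39, 0.61 and 0.76 FPKM in OB replicates 1, 2 and 3, against 2.19, 0.77 and 1.13 FPKM in DMSO replicates 1, 2 and 3. Each OB value lay below the DMSO value of its own number, while the groups as a whole overlapped. The difference on the log2(FPKM + 1) scale was −0.28 (SE 0.26, 95% interval −0.90 to 0.34; limma, Benjamini-Hochberg adjusted p = 1.0). In the DMSO cells Chrm4 ranked 9751st of 10094 genes at or above 1 FPKM. Chrm4 in the PD set was low and uneven, at 0.23, 0.19 and 0.32 FPKM in PD cells and 0.16, 1.55 and 0 FPKM in DMSO cells, and it did not enter the test. Chrm1, the Gq-coupled M1 receptor, was at most 0.05 FPKM in the OB set. With PD it was at 0, 0.06 and 0.02 FPKM and with its DMSO at 0, 0.08 and 1.18 FPKM, with DMSO replicate 3 alone above 1 FPKM. Chrm2, the other Gi-coupled receptor, was listed at 0 in all 6 libraries of the OB set and reached at most 0.1 FPKM in the PD set. Chrm3 was at most 0.26 FPKM and Chrm5 at most 0.11 FPKM in any of the 12 libraries.

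Ache, acetylcholinesterase, which breaks acetylcholine down (chr5:137288247-137294466), was the expressed acetylcholine enzyme. Bche, a second cholinesterase, and Chat, which makes acetylcholine, were listed at 0 in all 12 libraries. Ache measured 10.47, 5.38 and 4.84 FPKM in OB replicates 1 to 3 and 19.02, 6.26 and 6.66 FPKM in DMSO. OB was below DMSO within each replicate number, and replicate 1 was the highest library of both groups. The log2 difference was −0.46 (SE 0.45, 95% interval −1.52 to 0.60; limma, adjusted p = 1.0). Taken within replicate numbers, its interval was −0.78 to −0.14 with an adjusted p of 0.275. Without DMSO replicate 1 the difference was 0.01. Ache in the PD set measured 56.17, 40.88 and 39.51 FPKM in PD cells and 47.21, 28.7 and 29.87 FPKM in DMSO cells, where DMSO replicate 1 lay among the PD values. The log2 difference there was 0.38 (SE 0.23, 95% interval −0.14 to 0.90; limma, adjusted p = 0.663).

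The G alpha subunits are the largest group of members. Per length, Gnas supplied more than any other G alpha gene in every library. Its level is uncertain, since its locus carries overlapping transcripts and the use of strand in counting is not given in the sources used here. The Gs share of the summed FPKM of the 11 genes was 62.3%, 57.9% and 58.0% in OB replicates 1 to 3 and 62.4%, 56.2% and 57.0% in DMSO. PD cells had 52.7% to 54.1%, and their DMSO cells 61.9%, 54.5% and 54.4%, with replicate 1 the highest. The Gi class (Gnai1, Gnai2, Gnai3 and Gnaz) came next. It held 25.1%, 28.0% and 28.9% in OB cells against 25.0%, 31.3% and 31.4% in DMSO cells, where the groups overlapped. In PD cells it held 35.3%, 34.7% and 36.0% against 29.0%, 32.9% and 32.0% in DMSO cells, and these groups did not overlap. Gnai2 made up most of the Gi sum in each library of the PD set, so the share there largely restates that gene. Of all genes in this set, 13.1% were higher with PD without overlap, and the shares were not tested. The Gq class held 3.67% to 7.92% and the class of Gna12 and Gna13 held 4.67% to 8.51% in any library. Summed over the 11 genes, the level was 1064.0, 939.2 and 899.0 FPKM in PD cells and 757.0, 758.7 and 799.1 FPKM in DMSO cells. In the OB set it was 758.7, 568.7 and 538.1 FPKM in OB cells and 779.8, 459.1 and 514.1 FPKM in DMSO cells, with replicate 1 highest in both.

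**Figure D2:**
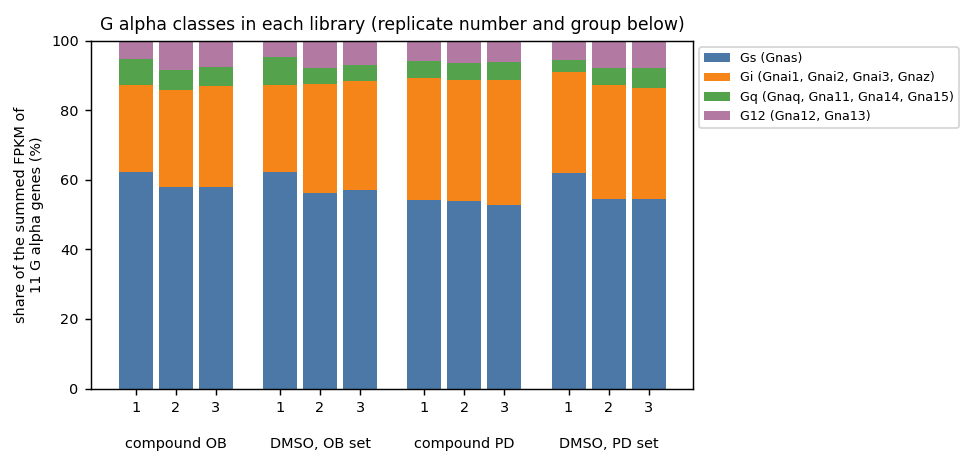
Share of the summed FPKM of 11 G alpha genes (percent) held by each class in each of the 12 libraries, with compound OB left of its DMSO and compound PD left of its DMSO. Gs holds more than the other classes together in every library, and the Gi share is 34.7% to 36.0% in PD libraries against 29.0% to 32.9% in their DMSO libraries.

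Within the Gi class, Gnai1 was at most 0.21 FPKM in any library of the OB set. With PD it measured 17.62, 7.08 and 8.67 FPKM, and in the DMSO cells of that set 10.15, 4.51 and 3.84 FPKM, where DMSO replicate 1 exceeded PD replicates 2 and 3 (log2 difference 0.76, 95% interval −0.13 to 1.65; limma, adjusted p = 0.557). Gnai2, the Gi gene with the highest mean in the DMSO cells of both sets, measured 132.44, 93.03 and 81.09 FPKM in OB cells and 140.97, 68.33 and 73.38 FPKM in DMSO cells, with overlap. Gnai3, a further Gi gene of broad expression, measured 54.81, 64.2 and 72.78 FPKM in OB cells and 49.59, 74.56 and 86.53 FPKM in DMSO cells. Gnai3 thus differed from Gnai2 in having its lowest values in replicate 1, and it lay above Gnai2 in DMSO replicates 2 and 3. Gnai3 in the PD set measured 59.81, 54.88 and 59.18 FPKM in PD cells and 38.47, 55.18 and 60.83 FPKM in DMSO cells, and only DMSO replicate 1 lay below the rest. Gna15, the Gq-class alpha subunit of blood cells, spread widely with the replicate number, at 43.86, 20.92 and 19.27 FPKM in OB cells and 49.87, 14.61 and 15.81 FPKM in DMSO cells. Its log2 difference of 0.19 had a 95% interval of −1.04 to 1.42, or −0.13 to 0.52 within replicate numbers. Gna13, of the same class as Gna12, kept between 14.22 and 17.16 FPKM in OB cells against 15.25 to 16.65 FPKM in DMSO cells, and between 23.56 and 27.87 FPKM in PD cells against 21.23 to 24.71 FPKM.

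Among the adenylyl cyclases, Adcy7 and Adcy6 led. Adcy7 held 51.6% to 58.1% of the summed FPKM of the 5 cyclases in libraries of the OB set and 39.2% to 57.5% in those of the PD set. It measured 42.96, 37.45 and 34.22 FPKM in OB cells and 43.79, 23.87 and 27.26 FPKM in DMSO cells, and the 2 groups overlapped through DMSO replicate 1. Its log2 difference was 0.31 (SE 0.23, 95% interval −0.23 to 0.84; limma, adjusted p = 1.0). Adcy7 in the PD set measured 35.27, 33.96 and 31.14 FPKM in PD cells and 17.9, 27.8 and 31.35 FPKM in DMSO cells, again with overlap. Adcy6, a cyclase that Gi inhibits, measured 33.91, 24.47 and 20.53 FPKM in OB cells and 36.83, 17.69 and 18.32 FPKM in DMSO cells, so replicate 1 was highest in both groups. After PD it was 30.12, 18.54 and 20.86 FPKM against 20.28, 13.96 and 18.07 FPKM in its DMSO cells. Adcy9 was lower, at 3.71 to 4.32 FPKM in OB cells and 3.19 to 3.97 FPKM in DMSO cells. Adcy9 did not overlap in the PD set, at 13.12, 7.95 and 7.89 FPKM in PD cells against 7.11, 5.03 and 7.76 FPKM in DMSO cells (log2 difference 0.46, SE 0.26; limma, adjusted p = 0.607). Adcy3 was below 1 FPKM in the OB set and erratic in the PD set, at 0.36, 1.42 and 0.05 FPKM in PD cells and 0.31, 1.53 and 4.37 FPKM in DMSO cells. Adcy4 was at most 0.3 FPKM.

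PKA is a holoenzyme of regulatory and catalytic subunits. Among the regulatory genes Prkar2b held 53.3% to 56.4% of the summed FPKM in the OB set and 55.6% to 67.4% in the PD set, and Prkar1a held most of the rest. Prkar2b measured 155.22, 137.11 and 133.34 FPKM in OB cells and 162.41, 136.94 and 136.21 FPKM in DMSO cells, with a log2 difference of −0.03 and a 95% interval of −0.28 to 0.22. Prkar1a measured 102.38, 93.82 and 89.07 FPKM in OB cells and 109.2, 82.04 and 83.22 FPKM in DMSO cells, with a difference of 0.07 and an interval of −0.25 to 0.38. These intervals bound any difference in the main regulatory subunits within 1 log2 unit. Both overlapped in the PD set too, where Prkar2b was at 179.02 to 213.96 FPKM in PD cells against 152 to 222.88 FPKM in DMSO cells and Prkar1a at 103.1 to 124.44 FPKM against 96.56 to 107.96 FPKM. Prkar2a measured 19.61 to 26.1 FPKM in OB cells and 21.35 to 23.94 FPKM in DMSO cells. Under PD it was 18.97, 15.39 and 14.14 FPKM in PD cells and 10.56, 13.45 and 13.18 FPKM in DMSO cells, without overlap (log2 difference 0.36, SE 0.19; limma, adjusted p = 0.588). Prkar1b, a form best known from brain, was at most 0.62 FPKM. Of the catalytic genes, Prkaca held 66.2% to 76.7% of the summed FPKM in the OB set and 53.2% to 66.0% in the PD set. Prkaca measured 40.07, 35.62 and 28.11 FPKM in OB cells and 46.2, 25.27 and 24.8 FPKM in DMSO cells. Prkacb, the second catalytic gene, varied little in the OB set, at 12.75 to 14.26 FPKM in OB cells and 12.57 to 14.05 FPKM in DMSO cells. Over the PD set Prkaca was at 30.7 to 34.52 FPKM in PD cells against 28.24 to 36.41 FPKM in DMSO cells, and Prkacb at 18.46 to 29.31 FPKM against 14.56 to 23.45 FPKM, both with overlap.

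The phosphodiesterases were at modest levels. Pde3b, a phosphodiesterase of both cAMP and cGMP, measured 6.41, 7.63 and 6.56 FPKM in OB cells and 7.39, 8.84 and 8.97 FPKM in DMSO cells. OB was lower within each replicate number, and the groups overlapped because OB replicate 2 exceeded DMSO replicate 1. The log2 difference was −0.26 (SE 0.13, 95% interval −0.56 to 0.04; limma, adjusted p = 1.0), and within replicate numbers the interval was −0.47 to −0.04 with an adjusted p of 0.302. Pde3b in the PD set measured 8.43, 7.15 and 10.99 FPKM in PD cells and 10.86, 5.27 and 5.09 FPKM in DMSO cells. Pde4a and Pde4d, enzymes specific for cAMP, were at 7.22 to 10.15 and 4.47 to 5.16 FPKM in OB cells, against 6.53 to 10.59 and 4.15 to 4.65 FPKM in DMSO cells. Pde4a in the PD set was at 5.85 to 8.6 FPKM in PD cells against 4.74 to 7.63 FPKM in DMSO cells. Pde4d there measured 10.61, 12.35 and 10.13 FPKM in PD cells and 7.42, 8.44 and 11.1 FPKM in DMSO cells. Pde7a lay between 3.17 and 5.3 FPKM in the OB set and was spread more widely in the PD set, at 9.25, 6.25 and 4.26 FPKM in PD cells and 3.96, 11.34 and 9.06 FPKM in DMSO cells. Pde4b and Pde8a were at most 0.45 and 0.2 FPKM in the OB set, and elsewhere at 1.62 to 2.34 and 1.38 to 4.15 FPKM in PD cells against 1.37 to 2.03 and 1.91 to 4.49 FPKM in DMSO cells. All 3 anchors overlapped between the groups of the OB set. Akap8, a nuclear anchor, measured 46.9 to 54.53 FPKM in OB cells and 45.5 to 53.53 FPKM in DMSO cells, and Akap1, a mitochondrial anchor, measured 18.32 to 19.79 FPKM against 13.45 to 20.01 FPKM. Akap13, a further anchor, measured 7.16 to 9.22 FPKM in OB cells and 6.77 to 9.79 FPKM in DMSO cells. Akap13 in the PD set measured 39.17, 38.41 and 34.2 FPKM in PD cells and 68.19, 31.64 and 39.24 FPKM in DMSO cells, with DMSO replicate 1 far above the rest. Akap8 and Akap1 were at 32.38 to 33.13 and 11.42 to 14.19 FPKM in PD cells, inside the DMSO ranges of 22.63 to 38.29 and 8.86 to 15.24 FPKM.

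After compound OB, no member passed the test. Of 27 members tested with limma, 0 had a Benjamini-Hochberg adjusted p under 0.05, and the background was 0.0% of 10073 genes. At an unadjusted p under 0.05 there were 2 members, Gna14 and Gna12, against a background of 3.69% of all genes. The same 2 were the members whose OB values all lay above all DMSO values (background 5.31%), and no member had all OB values below (background 3.42%). Gna14 (chr19:16435667-16610818), a Gq-class alpha subunit next to Gnaq (chr19:16132684-16388520), measured 3.5, 3.53 and 3.77 FPKM in OB cells and 2.02, 1.92 and 1.93 FPKM in DMSO cells. The replicates of each group lay close together, replicate 1 included, and the log2 difference of 0.64 was the largest of the 27 (SE 0.11, 95% interval 0.38 to 0.90; limma, adjusted p = 0.495). Gna12 measured 24.8, 31.23 and 24.28 FPKM in OB cells and 21.16, 19.5 and 18.95 FPKM in DMSO cells. Its log2 difference was 0.405 (SE 0.13, 95% interval 0.11 to 0.70; limma, adjusted p = 1.0). The neighbour Gnaq, at 1.44, 1.31 and 1.28 FPKM in OB cells and 1.81, 0.94 and 0.87 FPKM in DMSO cells, overlapped.

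In the OB set the deviations of same-numbered libraries from their group means ran together, most of all for replicate 1 (r = 0.831). Replicates 2 and 3 also ran together across numbers. OB replicate 2 gave r = 0.327 with DMSO replicate 3, against 0.434 with DMSO replicate 2. OB replicate 3 gave r = 0.413 with DMSO replicate 2, against 0.652 with DMSO replicate 3. The pairing of replicates 2 and 3 is therefore uncertain. Fitted within replicate numbers, 7 of 10073 genes passed (0.0695%) and again 0 of the 27 members, whose smallest adjusted p was 0.111, for Gna14 (95% interval 0.41 to 0.86). Gna12 had an adjusted p of 0.236 in that fit. At an unadjusted p under 0.05 there were then 5 members, Gna14, Gna12, Ache, Pde3b and Chrm4, against 14.9% of all genes. Chrm4 entered the test only through its DMSO group, which alone averaged over 1 FPKM, so its place among the lower members depends on that filter. Within pairs, Gna12, Gna14, Prkacb and Akap8 were higher with OB in 3 of 3 pairs (background 23.1%) and Chrm4, Ache and Pde3b lower in 3 of 3 (background 16.7%), with the same limit for Chrm4. For Prkacb the group difference of 0.025 changed sign with median-ratio scaling. In paired fits added after the data were seen, Gna14 passed with that scaling (adjusted p = 0.0332; background 1.03%), and 6 members passed without replicate 1, all higher: Adcy7, Akap1, Gna12, Gna14, Gna15 and Gnai2 (background 11.4%). Without replicate 2, Gna14 was higher and Ache lower past the threshold (background 1.45%), and without replicate 3 no member passed (background 0.0297%), so these calls rest on which pairs were used. Replicate 1 lay above the other 4 libraries in both arms for 59.3% of the 27 members, against 30.1% of all genes. The part of the megakaryocyte and granulocyte markers, which were also highest in replicate 1, was not tested.

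**Figure D3:**
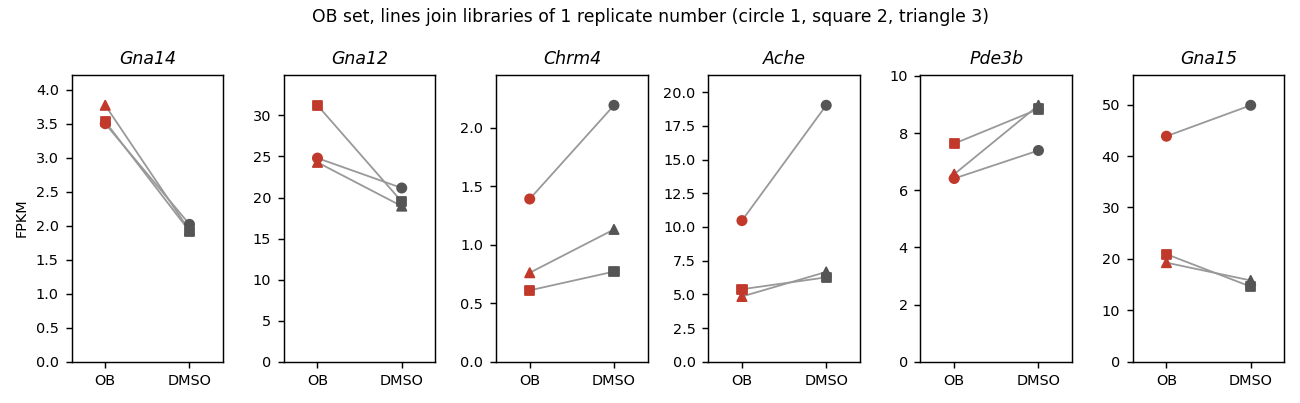
FPKM of 6 members in the OB set, compound OB left and DMSO right in each panel, with a line joining the libraries of 1 replicate number (circle 1, square 2, triangle 3). Every OB point lies above its DMSO partner for Gna14 and Gna12 and below it for Chrm4, Ache and Pde3b, while Gna15 shows replicate 1 well above the other libraries in both groups.

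The size of what could have been missed differed by gene. Over the 27 members the log2 differences ran from −0.46 (Ache) to 0.64 (Gna14), with 21 above 0 and 6 below and a median of 0.09, against 0.03 over all genes. Single libraries moved this split: it was 14 above and 13 below with a median of 0.01 without OB replicate 1, and the same without DMSO replicate 2, while without DMSO replicate 1 it was 22 and 4 with a median of 0.24. The median was also 0.01 without DMSO replicate 3 (19 above, 8 below) and 0.155 without OB replicate 3 (20 above, 7 below). Over all 10073 genes, 5917 were above 0 in the main fit. Their medians in the fits without 1 library, in the order given, were 0.048, 0.002, 0.043, 0.051 and 0.016. The 95% intervals stayed within 1 log2 unit of 0 for 24 of the 27 members, and for all 27 when fitted within replicate numbers, with a median width on each side of 0.44 and 0.24. The exceptions among the 27 in the unpaired fit were Ache, Gna15 and Gnaz.

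After compound PD, again no member passed the test. A log2 difference above 0 was found for 27 of the 31 tested and for 7025 of all 11887 genes. Of 31 members tested with limma, 0 had an adjusted p under 0.05 (background 0.0252%, 3 of 11887 genes), and 5 had an unadjusted p under 0.05 (background 10.7%): Gnai2, Gnaz, Rapgef3, Gnaq and Gna11. Groups did not overlap, with PD higher, for 8 of the 31 (background 13.1%), namely these 5 with Gnas, Adcy9 and Prkar2a, and with PD lower for 0 of the 31 (background 3.72%).

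Gnai2 measured 274.05, 247.44 and 239.75 FPKM in PD cells and 157.37, 184.41 and 185.89 FPKM in DMSO cells. All PD values lay above all DMSO values, and the log2 difference was 0.53 (SE 0.14, 95% interval 0.21 to 0.85; limma, adjusted p = 0.224). Gnaz (chr10:74967177-75016907), a Gi-class subunit resistant to pertussis toxin, measured 23.63, 16.62 and 16.4 FPKM in PD cells and 13.81, 5.87 and 5.24 FPKM in DMSO cells. Replicate 1 was highest in both groups, as it was for the megakaryocyte marker sum given above, and the part of those cells in the result was not tested. The log2 difference of Gnaz was 1.19 (SE 0.33, 95% interval 0.45 to 1.94; limma, adjusted p = 0.237). Without DMSO replicate 1, the library that stood apart in scale, Gnaz was 1.58 higher (SE 0.20, adjusted p = 0.0242) and was the only member of the 31 to pass, where 1.4% of all genes passed.

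Gnaq, the alpha subunit that activates phospholipase C, measured 14.82, 9.33 and 11.29 FPKM in PD cells and 8.51, 4.92 and 5.85 FPKM in DMSO cells. Its log2 difference was 0.79 (SE 0.25, 95% interval 0.23 to 1.36; limma, adjusted p = 0.279), and the groups were separated by less than 1 FPKM at their edges. Gna11, its close relative, measured 7.73, 11.31 and 7.51 FPKM in PD cells and 3.97, 6.47 and 4.61 FPKM in DMSO cells, with a difference of 0.71 (SE 0.25, 95% interval 0.15 to 1.27; adjusted p = 0.327). Gna15, which lies beside Gna11 on chromosome 10, measured 24.52, 22.73 and 22.44 FPKM in PD cells and 13.07, 21.89 and 30.5 FPKM in DMSO cells, and its groups overlapped. Gnas measured 575.56, 507.16 and 473.67 FPKM in PD cells and 468.64, 413.63 and 434.91 FPKM in DMSO cells, a gap of 0.24 on the log2 scale (95% interval −0.06 to 0.53; limma, adjusted p = 0.6). Gna14, the member furthest above DMSO with compound OB, measured 3.71, 4 and 4.22 FPKM in PD cells and 2.2, 1.83 and 4.29 FPKM in DMSO cells, where DMSO replicate 3 exceeded all PD values. Gna12 measured 34.67, 35.12 and 31.43 FPKM in PD cells and 19.58, 37.55 and 38.39 FPKM in DMSO cells.

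Rapgef3 (chr15:97744770-97768419), the cAMP-activated exchange factor, was at most 0.08 FPKM in the OB set. With PD it measured 2.6, 2.93 and 3.39 FPKM, and in the matching DMSO cells 1.17, 1.59 and 1.08 FPKM. The groups did not overlap and replicate 1 did not stand apart, and the log2 difference was 0.80 (SE 0.25, 95% interval 0.23 to 1.37; limma, adjusted p = 0.279).

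**Figure D4:**
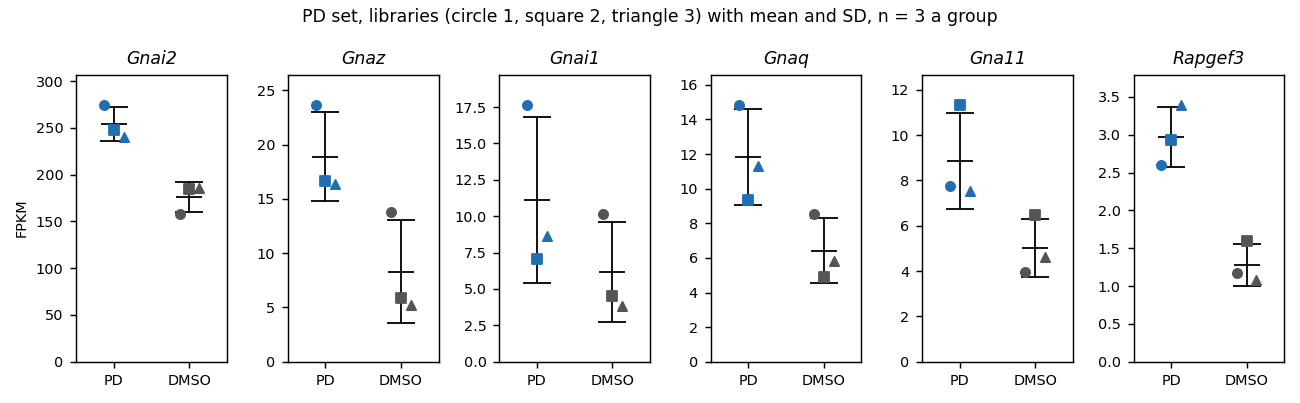
FPKM of 6 members in the PD set, compound PD left and DMSO right, each library as a symbol (circle 1, square 2, triangle 3) with the mean and SD of 3 libraries. For Gnai2, Gnaz, Gnaq, Gna11 and Rapgef3 all PD libraries lie above all DMSO libraries, and for Gnai1 DMSO replicate 1, at 10.15 FPKM, lies above 2 PD libraries.

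Over the 31 members the log2 differences ran from −0.79 (Adcy3) to 1.19 (Gnaz), with 27 above 0 and 4 below. Adcy3 entered the test only through DMSO replicate 3 and left it without that library. Its place as the lowest member therefore depends on the filter. Over all 11887 genes, 7025 were above 0. The median of the members was 0.24, against 0.06 over all genes. Without DMSO replicate 1 there were 22 members above and 9 below, with a median of 0.17. Over all genes, 5618 were then above and 6323 below, with a median of −0.024. With median-ratio scaling, in which DMSO replicate 1 had a size factor of 0.834 and the other 5 libraries 1.006 to 1.069, 24 members were above 0 and 7 below, with a median of 0.14 against −0.03 over all genes, and Prkaca, Akap1 and Akap8 changed sign. The 95% intervals stayed within 1 log2 unit of 0 for 21 of the 31 and reached or crossed it for 10. The granulocyte marker sum was higher in every PD library than in any DMSO library of this set, as given above. The megakaryocyte sums overlapped, as DMSO replicate 1 exceeded PD replicate 2. The part of either in the members' values was not tested.

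**Figure D5:**
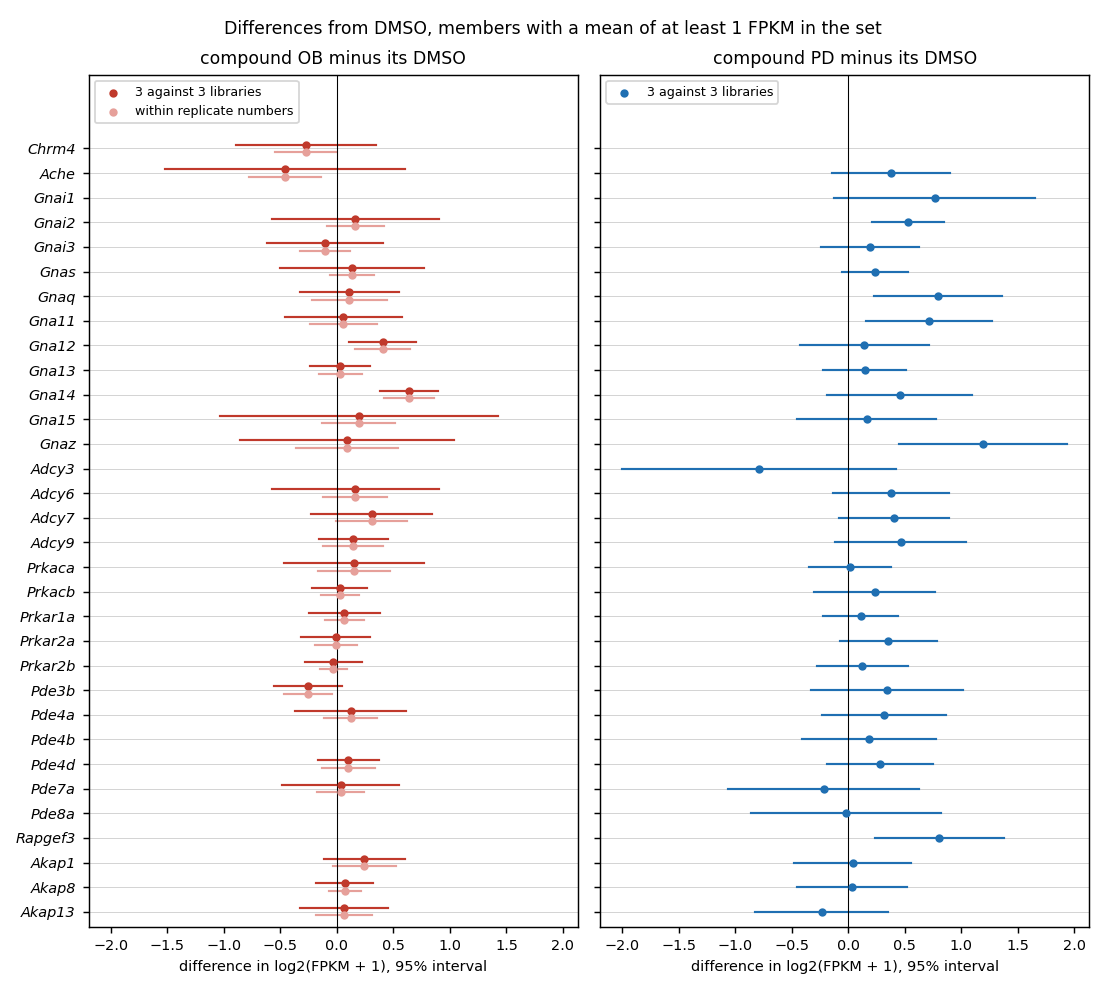
Difference in log2(FPKM + 1) of compound OB (left panel) and compound PD (right panel) from DMSO, with 95% intervals, for members with a mean of at least 1 FPKM, dark symbols for 3 against 3 libraries and pale ones for the OB fit within replicate numbers. Intervals narrow in the paired fit, where Gna14 keeps 0.41 to 0.86, and Gnaz has the largest PD difference, 1.19.

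The compounds' differences from DMSO were then set against each other in a single fit of the 12 libraries, in which compound, dose and set cannot be told apart. Of 30 members tested, 0 passed with limma (background 0.0% of 10311 genes) and 1 had an unadjusted p under 0.05 (background 7.38%). That one, Rapgef3, was at most 0.08 FPKM in the OB set and entered only through the PD set, so its value restates the PD difference against a floor and is not a comparison of the compounds. For Ache, the PD difference exceeded the OB difference by 0.84 (SE 0.52, 95% interval −0.28 to 1.96; limma, adjusted p = 0.848), and for Gnaz by 1.10 (95% interval −0.09 to 2.29; adjusted p = 0.717). With the replicate number as a block in each set, 0 of the 30 passed and 6 had an unadjusted p under 0.05 (background 1131 of 10311 genes): Ache, Gnaz, Gnai1, Rapgef3, Gna11 and Gnaq. In that fit Ache had an interval of 0.36 to 1.32 (adjusted p = 0.202) and Gnaz one of 0.39 to 1.81 (adjusted p = 0.238). Gnai1 was near 0 in the OB set, as was Rapgef3. Same-numbered libraries of the PD set did not deviate together across genes, so whether its numbers pair the libraries is uncertain. For Gna14 the value was −0.18 (95% interval −0.83 to 0.46), which bounds a difference between the compounds' effects without showing that they act alike.

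A wider list of 112 genes of the same pathway (other G protein subunits and their regulators, other cyclases, phosphodiesterases, exchange factors and anchors, PKA inhibitors, phospholipase C, choline handling, nicotinic receptors and Gs-coupled receptors) gave 39 genes tested with OB and 57 with PD, and 0 passed in either. At an unadjusted p under 0.05 there were 1 of the 39 (background 3.69%) and 12 of the 57 (background 10.7%). The median log2 difference was 0.005 with OB (0.03 over all genes) and 0.30 with PD (0.06 over all genes), or 0.21 against −0.03 with PD under median-ratio scaling. With OB the smallest p-values in the unpaired fit were those of Akap7, Akap2 and Grk6. Akap7, a small anchor, measured 2.45, 2.03 and 2.3 FPKM in OB cells and 3.14, 3.46 and 3.4 FPKM in DMSO cells, without overlap (log2 difference −0.41, SE 0.12; limma, adjusted p = 1.0). All OB values lay below all DMSO values for 2 of the 39, Akap7 among them (background 3.42%). Akap2, another anchor, measured 4.77, 6.53 and 5.95 FPKM in OB cells and 3.99, 4.77 and 4.56 FPKM in DMSO cells. Grk6, a kinase that desensitises receptors, measured 62.39, 59.91 and 47.89 FPKM in OB cells and 55.32, 37.52 and 41.74 FPKM in DMSO cells, with overlap. Within replicate numbers the smallest p was that of Pde4dip, an anchor of phosphodiesterase, named after its values were seen. It measured 1.29, 3.36 and 3.6 FPKM in OB cells and 0.64, 1.78 and 2 FPKM in DMSO cells, higher in 3 of 3 pairs although the groups overlapped (log2 difference 0.58, 95% interval 0.34 to 0.82; limma with the block, adjusted p = 0.134). With PD they were those of Gpsm3, Arrb2 and Gng11. In all 3 the PD values lay above all DMSO values, as they did for 17 of the 57 (background 13.1%). Being picked by p in the same comparison favours such genes. Gpsm3, a regulator that binds Gi alpha subunits, measured 63.97, 53.69 and 51.15 FPKM in PD cells and 25.25, 35.32 and 25.27 FPKM in DMSO cells (log2 difference 0.96, SE 0.19; limma, adjusted p = 0.138). Arrb2, a beta-arrestin that uncouples receptors from G proteins, measured 132.52, 121.56 and 115.86 FPKM in PD cells and 71.18, 81.99 and 76.14 FPKM in DMSO cells (log2 difference 0.68, SE 0.14; limma, adjusted p = 0.152). Gng11, a gamma subunit, measured 24.65, 21.62 and 33.62 FPKM in PD cells and 15.95, 9.98 and 8.44 FPKM in DMSO cells (log2 difference 1.17, SE 0.26; limma, adjusted p = 0.158). Without DMSO replicate 1, Arrb2 (adjusted p = 0.0377) and Gng11 (adjusted p = 0.0306) passed (background 1.4%).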

How the data were processed

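RNA was measured in 12 libraries of cultured mouse BFU-E, 3 in each of 4 groups. The authors deposited FPKM values with 2 decimals. STAR and the build mm10 are named in the submitters' processing notes. How FPKM was computed, on which annotation and with what use of strand, was not given in the sources used here. In the OB set 428 names split at a hyphen and in each set 27 names turned into dates were left out, with 185 repeated entries in the PD set. No member was among them. Low values were searched for whole reads, and 9.22% (OB set) and 10.04% (PD set) of ratios were whole within 0.05, against 10% by chance, so depth is unknown and no counting error can be given.

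Compound and DMSO libraries of a set were compared with limma 3.58.1 (statmod 1.5.0, R 4.3.3; mean-variance trend, robust moderation) on log2(FPKM + 1). Genes entered when their mean over the set reached 1 FPKM, with two-sided p-values adjusted by the Benjamini-Hochberg method over all genes and a threshold of 0.05. The scale understates changes of low genes. Same-numbered libraries of the OB set deviated together (r = 0.831, 0.434 and 0.652 across genes), so a fit with the replicate number as a block is given too. Replicates 2 and 3 deviated together across numbers as well (r = 0.327 and 0.413), so that block is less certain for them. Fits with another pseudocount, filter or scaling, or without 1 library, are in the closing section. The paired fits with median-ratio scaling or without a pair were added after seeing the data. Named are all members whose mean reached 1 FPKM, every receptor and acetylcholine enzyme, and of the wider list the 3 with the smallest p in each comparison. The members and lists were chosen with earlier results of these data known. The fit was run on simulated data whose changes were larger than any member's difference and whose noise was independent between libraries. Its power for smaller changes, or with replicate numbers that vary together, was not tested. Tables and figures used Python 3.11.15, pandas 2.3.3, numpy 2.4.6 and matplotlib 3.10.9. Coordinates and promoter sequences are RefSeq's for GRCm38.p6.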

Additional observations from a re-analysis of the deposited data

How the results depend on the processing

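With 3 libraries a group and no counts, differences smaller than the intervals given could not be detected. Counts of genes that passed moved most. With OB (0 of all genes), 7 passed with the replicate block, 104 with the block and median-ratio scaling, 1133, 146 and 3 in the block without replicate 1, 2 and 3, and 0 to 14 without 1 library. Members that passed with OB (0, and 0 with the block) numbered 1 with the block and median-ratio scaling and 6, 2 and 0 in the block without replicate 1, 2 and 3, and genes of the wider list up to 5. With PD (3 of all genes), 41 passed with the replicate block, 0 without a filter beyond a mean above 0, and 0 to 167 without 1 library. Members numbered 0 to 1 and genes of the wider list 0 to 2 there, the highest in each case without DMSO replicate 1. The replicate numbers of the PD set share only a number (r = −0.005, −0.028 and −0.02), and the block changed the call of no member. For the difference between compounds (0), 3 passed with a pseudocount of 0.1, 3 without a filter and 0 to 15 without 1 library, and no member passed in any of these. Expressed members numbered 25 to 27 in the OB set and 30 to 31 in the PD set without 1 DMSO library. Ache with OB ranged from −0.764 to 0.014 without 1 library, with the change of sign without DMSO replicate 1 (adjusted p = 0.984). Gna14 kept 0.60 to 0.85 and Gna12 0.28 to 0.50 with OB, and Gnaz 0.96 to 1.58, Gnai2 0.43 to 0.57 and Rapgef3 0.73 to 1.17 with PD, over the alternatives run. The cause of these movements was not tested.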
